A study of Mus musculus with 40 samples.

Results

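Peaks of 4 histone marks were described at 10 genes of glucose uptake and glycolysis in brown adipose tissue, out of 21938 protein-coding genes. The genes were Slc2a1, Slc2a4, Hk1, Hk2, Pfkl, Pfkfb3, Pkm, Ldha, Pdk2 and Pdk4. They were chosen by their function, and each was examined over its gene body and 10 kb on each side in GRCm38. H3K4me3, H3K27ac, H3K4me1 and H3K27me3 had been profiled by chromatin immunoprecipitation and sequencing (ChIP-seq) in interscapular brown fat of 8 C57BL/6N mice aged 20 weeks, which gave 32 peak lists. Mice 1 and 2 were kept warm on normal chow diet (NCD) and mice 4 and 5 were on NCD and housed at 4 °C for 24 h. Mice 7 and 8 were warm on a high-fat diet (HFD), which was given for 12 weeks from 8 weeks of age, and mice 10 and 11 were on HFD and housed in the cold for the same time. Warm stands for the study's standard housing at room temperature. All animals were wild type, and each of the 4 conditions had 2 mice. Whole tissue was used, so fewer cells of a type and less of a mark per cell cannot be told apart.

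Brown adipocytes burn fatty acids and glucose to produce heat, and glucose uptake by brown fat rises in the cold. Glucose enters through the transporters GLUT1 (Slc2a1) and GLUT4 (Slc2a4), is trapped by hexokinases (Hk1, Hk2) and committed to glycolysis by phosphofructokinase (Pfkl), which the product of Pfkfb3 stimulates. Pyruvate kinase (Pkm) makes pyruvate, which lactate dehydrogenase A (Ldha) turns to lactate or pyruvate dehydrogenase feeds to mitochondria, and the kinases Pdk2 and Pdk4 switch pyruvate dehydrogenase off. H3K4me3 marks start sites in use or poised for use, H3K27ac marks active start sites and enhancers, H3K4me1 marks enhancers more broadly, and H3K27me3 marks Polycomb-silenced genes.

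Each list had been called separately, so a peak is given here by its percentile, the rank of its fold enrichment within its own list with 100 as the highest, and a gene without a peak has 0. A peak is at a start site when its summit, the highest point, lies within 1000 bp of an annotated transcription start site (TSS) of the gene. It is distal when its summit lies in the gene body or within 10 kb of it, and more than 1000 bp from the TSS of any gene. Peaks can be several kb wide, so peaks with any base within 1000 bp of the TSS are also given where this changes a count. The lists held 13517 to 24104 H3K4me3 peaks, 3224 to 40604 H3K27ac peaks, 12 to 27568 H3K4me1 peaks and 20 to 6428 H3K27me3 peaks. The H3K27ac list of mouse 7 was the shortest, followed by those of mouse 10 with 14511 and mouse 1 with 16889 peaks. A missing peak in such a list says that none was called there, not that the mark was absent. The tissue label was checked on marker genes. Of 7 brown adipocyte markers, 5 to 7 had a start-site H3K4me3 peak in each mouse, and of 7 skeletal muscle markers 1 to 3 did. Of 5 macrophage markers 0 to 2 and of 4 endothelial markers 1 to 4 had one, and the negative controls Alb and Neurod1 had none in any mouse.

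The sequences of 6 promoters are shown because they differ in marks, in position or in short motifs. They were taken from RefSeq on GRCm38.p6 and run from 250 bases before to 50 bases after an annotated start. All are written 5′ to 3′ on the strand of the gene, and capitals mark matches on either strand to 4 short motifs. One is the core of the site of Sp1-type factors, GGGCGG, called an Sp1 site here. Another is the E-box, spelled CACGTG. The cAMP response element is spelled TGACGTCA. The TATA box is spelled TATAAA. The table held 14 promoters for 9 of the 10 genes, and Slc2a4 had no entry.
Slc2a1 promoter, chr4:119108495-119108794, plus strand: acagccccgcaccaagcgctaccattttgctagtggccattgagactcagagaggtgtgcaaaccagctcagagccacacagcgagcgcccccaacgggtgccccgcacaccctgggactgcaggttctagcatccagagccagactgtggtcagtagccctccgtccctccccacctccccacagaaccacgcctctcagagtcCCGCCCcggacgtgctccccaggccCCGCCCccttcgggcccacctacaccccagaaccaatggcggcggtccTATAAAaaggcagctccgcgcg
Hk1 promoter at the marked start site, chr10:62340372-62340671, minus strand: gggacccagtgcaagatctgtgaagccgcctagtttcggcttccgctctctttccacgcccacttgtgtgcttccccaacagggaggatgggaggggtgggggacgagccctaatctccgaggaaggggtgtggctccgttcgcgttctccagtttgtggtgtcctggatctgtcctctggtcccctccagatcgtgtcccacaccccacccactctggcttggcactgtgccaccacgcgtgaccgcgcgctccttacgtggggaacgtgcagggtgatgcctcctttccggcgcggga
Hk1 promoter at the outermost start site, chr10:62379859-62380158, minus strand: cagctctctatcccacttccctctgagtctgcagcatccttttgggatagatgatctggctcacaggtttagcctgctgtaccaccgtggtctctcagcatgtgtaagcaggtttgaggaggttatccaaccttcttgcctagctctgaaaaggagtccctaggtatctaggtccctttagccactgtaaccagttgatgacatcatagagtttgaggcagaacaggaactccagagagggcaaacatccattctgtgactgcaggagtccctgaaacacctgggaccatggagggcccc
Pfkfb3 promoter of the short transcripts, chr2:11502041-11502340, minus strand: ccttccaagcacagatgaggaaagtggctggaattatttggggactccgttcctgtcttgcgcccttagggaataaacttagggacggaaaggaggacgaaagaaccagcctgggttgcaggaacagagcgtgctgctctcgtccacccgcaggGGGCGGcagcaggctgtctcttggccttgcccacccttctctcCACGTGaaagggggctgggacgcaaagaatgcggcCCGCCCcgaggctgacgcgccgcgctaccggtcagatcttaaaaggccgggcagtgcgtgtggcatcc
Ldha promoter, chr7:46845554-46845853, plus strand: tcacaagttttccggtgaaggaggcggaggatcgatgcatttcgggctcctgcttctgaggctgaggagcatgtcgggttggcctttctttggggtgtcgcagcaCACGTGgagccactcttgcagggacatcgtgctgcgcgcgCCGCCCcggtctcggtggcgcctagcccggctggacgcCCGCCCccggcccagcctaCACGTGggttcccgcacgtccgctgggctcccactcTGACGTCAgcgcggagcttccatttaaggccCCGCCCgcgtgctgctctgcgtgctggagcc
Pdk4 promoter, chr6:5496229-5496528, minus strand: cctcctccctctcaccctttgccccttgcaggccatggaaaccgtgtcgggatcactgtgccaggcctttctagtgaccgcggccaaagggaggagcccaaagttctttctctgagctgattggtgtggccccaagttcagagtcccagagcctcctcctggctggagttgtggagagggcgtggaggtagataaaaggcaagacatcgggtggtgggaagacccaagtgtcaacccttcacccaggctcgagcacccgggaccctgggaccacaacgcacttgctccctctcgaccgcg

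The promoter of Slc2a1, which encodes the transporter that works without insulin, held 2 Sp1 sites and a TATA box. At Hk1 the outermost start site had 1 CpG in its 300 bases, where 5.43% of 32817 promoters had fewer and 85.9% had more. The marked start site of the same gene held 20 CpGs, against a median of 7 over all promoters. The Ldha promoter held 2 E-boxes, 3 Sp1 sites and the only cAMP response element among the 14 promoters. An E-box was present at 3 of the 9 genes, Pfkfb3, Ldha and Pdk2, in 3 of their 14 promoters, beside 7.15% of all promoters. An Sp1 site was present at 6 of the 9 genes and in 7 of the 14 promoters, beside 35.6% of all promoters. The cAMP response element occurred in 1.79% and the TATA box in 13.6% of all promoters. A match is not a measure of binding, and Pdk4 held none of the 4 motifs in this window.

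Among the stretches with a summit within 10 kb of a gene, 2 with high distal H3K27ac ranks in all 8 mice lie in an intron of Pfkfb3 and upstream of Ldha. The 201 bases around the median summit of each are printed from the GRCm38.p6 genome on the strand of the gene, without capitals because neither holds any of the 4 motifs or a DR1 element, the direct repeat that nuclear receptors of the PPAR family bind.
Pfkfb3 intron, chr2:11513302-11513502, minus strand: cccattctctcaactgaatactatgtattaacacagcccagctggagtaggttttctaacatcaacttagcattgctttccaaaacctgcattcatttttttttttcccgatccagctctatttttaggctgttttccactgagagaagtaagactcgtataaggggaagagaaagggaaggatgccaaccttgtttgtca
Ldha upstream, chr7:46839293-46839493, plus strand: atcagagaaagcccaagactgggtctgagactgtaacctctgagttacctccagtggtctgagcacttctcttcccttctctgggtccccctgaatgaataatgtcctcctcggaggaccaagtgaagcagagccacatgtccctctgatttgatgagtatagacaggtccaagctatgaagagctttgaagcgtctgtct

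Both are poor in CpG, with 2 each. At the 27858 distal H3K27ac summits of mouse 11, the longest list, 2.42% of windows of this length held an E-box, 0.144% a cAMP response element and 0.0395% a DR1.

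H3K4me3 was present at the start sites of nearly all of these genes. In all 8 mice 9 of the 10 genes had a start-site summit, as did 41.5% of all protein-coding genes. The exception was Pdk4, where the summit lay more than 1000 bp into the gene in mice 1 and 7, and a peak reached the start site in all 8 mice. Counted by any base, all 10 genes were marked in every mouse, against 43.3% of all protein-coding genes. No H3K27me3 peak was found at a start site of any of the 10 genes or elsewhere in their windows in any of the 8 mice. H3K27me3 lists were short, and 6.23% of all protein-coding genes had a start-site summit in at least 1 mouse.

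H3K27ac at start sites was less regular. In all 8 mice, Slc2a4, Pfkl and Pdk2 had a start-site summit, which is 3 of the 10 genes against 3.11% of all protein-coding genes. Counted by any base, Hk2 and Pdk4 joined them, giving 5 of the 10 against 3.74% of all genes. Without mouse 7 alone, the number with a start-site summit was 6 rather than 3, and without mice 1, 7 and 10 it was 7. A distal H3K27ac peak was present in all 8 mice at 7 of the 10 genes, against 4.31% of all protein-coding genes. The exceptions were Slc2a1, Hk1 and Pdk2. Genes with H3K4me3 at the start site in all 8 mice were the closer comparison, and 7% of these had a start-site H3K27ac summit and 6.94% a distal H3K27ac peak in all 8 mice.

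**Figure D1:**
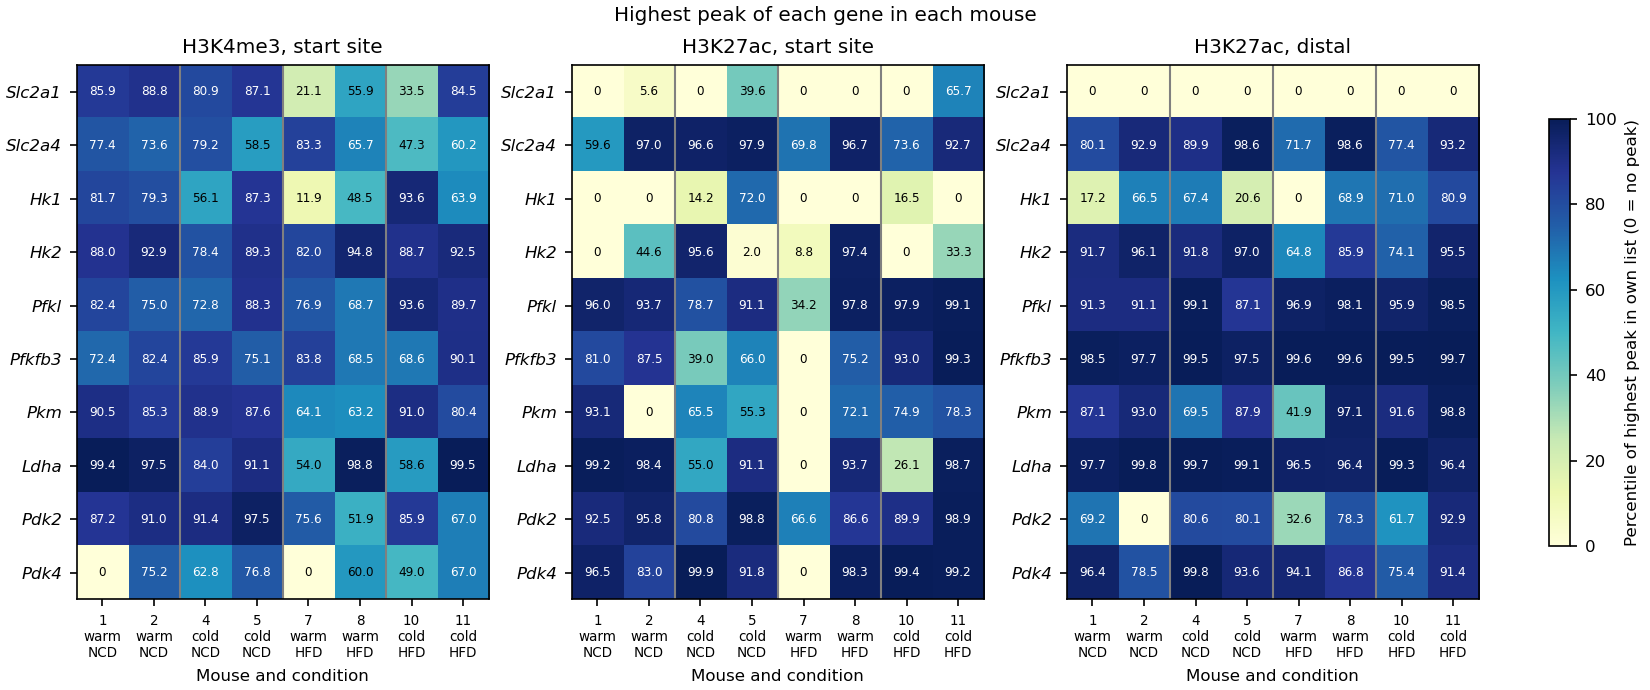
Percentile of the highest peak of each gene in each of 8 mice, for H3K4me3 and H3K27ac at start sites and for distal H3K27ac. Columns are mice grouped by condition, rows are genes, and 0 stands for no peak. Slc2a1 is at 0 for distal H3K27ac throughout, Pfkfb3 is at 97.5 to 99.7, and mouse 7 has 0 at start-site H3K27ac for 6 of the 10 genes.

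The 2 glucose transporters differed in H3K27ac. For Slc2a4 (chr11:69942539-69948188, minus strand), the insulin-regulated transporter, the start-site H3K27ac percentile was 59.6 and 97 in the warm NCD mice, 96.6 and 97.9 in the cold NCD mice, 69.8 and 96.7 in the warm HFD mice, and 73.6 and 92.7 in the cold HFD mice. For Slc2a1 (chr4:119108711-119137983, plus strand) it was 5.63, 39.6 and 65.7 in mice 2, 5 and 11, and 0 in the other 5 mice. Slc2a4 was the higher in 8 of 8 mice, and the low values of Slc2a4 were in mice 1, 7 and 10, which had the shortest lists. The 59.6 of mouse 1 rests on the summit rule. By any base this mouse was at 76, with the summit of that peak 1187 bp downstream of a start site.

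H3K4me3 did not separate the transporters in this way. Slc2a1 had percentiles of 85.9 and 88.8 on warm NCD, 80.9 and 87.1 on cold NCD, 21.1 and 55.9 on warm HFD, and 33.5 and 84.5 on cold HFD. Slc2a4 had 77.4 and 73.6, 79.2 and 58.5, 83.3 and 65.7, and 47.3 and 60.2 in the same order, and was the higher in 3 of 8 mice. Slc2a1 thus carried a start-site H3K4me3 peak in every mouse, ranked low in mice 7 and 10, while H3K27ac was called at its start site in 3 mice.

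Around the transporters, Slc2a1 had no distal H3K27ac peak in any of 8 mice over a window of 49.3 kb. It had a H3K4me3 peak 2693 bp upstream of the TSS in 7 mice, at percentiles of 31.7 to 61. Over all protein-coding genes, 13016 of 21938 had no distal H3K27ac peak in any mouse. Slc2a4 had 1 to 4 distal H3K27ac peaks per mouse, which is 10.2 per 100 kb and more than at 98.4% of protein-coding genes. The highest of them lay on the far side of the gene, 10.2 kb from the TSS at chr11:69935823-69940648, at percentiles of 71.7 to 98.6. That region reaches the start site of Ybx2, which codes for a Y-box nucleic acid-binding protein, and cannot be assigned to either gene. Of peaks with no base near a TSS of a basic transcript, Slc2a4 had one in 8 mice at 29.3 to 93.2. In the full annotation, a further Ybx2 start lay 260 bp from the H3K4me1 summit at chr11:69939516-69939984, within the same H3K27ac region. Some of these peaks can thus lie at a Ybx2 start.

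Of the hexokinases, Hk2 (chr6:82725025-82774454, minus strand), the isozyme of insulin-sensitive tissues, carried a dense group of distal H3K27ac peaks. Mice 1 and 2 had 11 and 10 distal peaks, mice 4 and 5 had 18 and 15, mice 7 and 8 had 4 and 14, and mice 10 and 11 had 9 and 15. This is a mean of 17.3 per 100 kb, more than at 99.8% of protein-coding genes, of which 13016 of 21938 had no distal H3K27ac peak in any mouse. The number also depends on how a list divides an acetylated stretch. A stretch called as 1 peak in mouse 2 was several separate peaks in mouse 4. The fewest peaks were in mouse 7, and cold and warm mice overlapped, with a difference of 4.5 peaks (two-sided exact permutation test, p = 0.229). Regions with H3K27ac in at least 5 mice lay between 3.63 and 32.1 kb from the downstream one of its 2 start sites, and 1 intronic region, 12.3 kb into the gene at chr6:82759098-82762975, had a peak in all 8 mice at percentiles of 12.9 to 91.8. At the promoter, a H3K27ac region of 4209 bp had its summit 1602 bp inside the gene and a peak in all 8 mice, at percentiles of 64.8 to 97.4. For this reason Hk2 counted as marked by H3K27ac at the start site in 6 mice by summit and in 8 by any base.

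Hk2 also had one of the steadiest H3K4me3 values, with percentiles of 88 and 92.9 on warm NCD, 78.4 and 89.3 on cold NCD, 82 and 94.8 on warm HFD, and 88.7 and 92.5 on cold HFD. The mean was 88.3 ± 5.6 (SD, n = 8), the smallest SD of the 10 genes for this mark. Conditions overlapped throughout.

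Hk1 (chr10:62268855-62379908, minus strand), the widely expressed hexokinase, was marked at 1 of its 4 annotated start sites. The site at position 62340542 of chromosome 10 had a H3K4me3 summit in 8 of 8 mice, and the sites at 62342722, 62358362 and 62379908 had no summit of any of the 4 marks. The marked site lies inside the gene, and its promoter and that of the outermost site are printed above. Its H3K4me3 percentile was 81.7, 79.3, 56.1, 87.3, 11.9, 48.5, 93.6 and 63.9 in mice 1, 2, 4, 5, 7, 8, 10 and 11, a spread of 26.6 (SD, n = 8) that was second to that of Slc2a1 among the genes marked in every mouse. A H3K27ac peak reached this site in all 4 cold mice, at 14.2, 72, 71 and 80.9, and in 1 of 4 warm mice, at 66.5. Means were 59.5 in the cold and 16.6 in the warm mice (two-sided exact permutation p = 0.0571, adjusted p = 1), the numbers of mice gave p = 0.143 by Fisher's exact test (two-sided), and with the summit rule they were 3 of 4 and 0 of 4. This contrast depended on the 1000 bp limit. In warm mice 1 and 8, peaks at 17.2 and 68.9 began 1182 and 1093 bp into the gene from this site. The main peak of cold mouse 4, at 67.4, began at 1146 bp. Joined over mice, the H3K27ac region at this site had a peak in 4 cold and 3 warm mice. Hk2 had the higher percentile of the pair in 7 of 8 mice for H3K4me3 and in 8 of 8 for H3K27ac by any base. Hk3 and Hkdc1, further members of the hexokinase family, had no H3K4me3 or H3K27ac summit at a start site and no distal H3K27ac peak in any mouse.

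Pfkl (chr10:77986947-78010083, minus strand), the liver-type subunit of phosphofructokinase, was marked at its start site by both marks in 8 of 8 mice. Its H3K27ac percentile was 96 and 93.7 on warm NCD, 78.7 and 91.1 on cold NCD, 34.2 and 97.8 on warm HFD, and 97.9 and 99.1 on cold HFD, so that mouse 7 stood below all others. The acetylated stretch extended upstream, with its summit 2777 bp before the TSS when the peaks of all mice were joined. Distal H3K27ac peaks numbered 2 to 5 per mouse, the highest at percentiles of 87.1 to 99.1. The muscle-type Pfkm was at a median of 87.2 for start-site H3K27ac and had no distal H3K27ac peak in any mouse. The platelet-type Pfkp had a start-site summit in 3 mice and a distal peak in 8. Both had H3K4me3 in 8 of 8 mice.

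Pfkfb3 (chr2:11471433-11554077, minus strand), which makes the activator fructose-2,6-bisphosphate, had the highest median distal H3K27ac percentile of the 10 genes, 99.5, although Ldha was higher in mice 2, 4 and 5. Its highest distal peak was at percentiles of 98.5 and 97.7 on warm NCD, 99.5 and 97.5 on cold NCD, 99.6 and 99.6 on warm HFD, and 99.5 and 99.7 on cold HFD. The peak was in one region, chr2:11511682-11518209, in an intron of the longest transcript and 11.3 kb upstream of the start of the short transcripts. The region had a peak in all 8 mice, mouse 7 included, and is the one whose central sequence is printed above. Within it, H3K4me3 had a peak of 32.6 to 83.9 in all 8 mice, and H3K4me1 a peak in mice 2, 4, 5, 8 and 11. The HFD mice were at or above 99.5 and the NCD mice at or below 99.5, a difference of 1.28 percentile points (two-sided exact permutation test, p = 0.0571, adjusted p = 1).

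Both start-site groups of Pfkfb3 carried H3K4me3 in 8 of 8 mice. H3K27ac was at the short transcripts in 7 mice and at the long transcript in mice 5, 8, 10 and 11. The gene's highest start-site H3K27ac percentile was 81 and 87.5 on warm NCD, 39 and 66 on cold NCD, 0 and 75.2 on warm HFD, and 93 and 99.3 on cold HFD. The cold mice were thus below the warm mice on NCD and above them on HFD. The difference between the 2 cold effects was -90.2 percentile points (two-sided exact permutation over all assignments to the 4 conditions, p = 0.0286, adjusted p = 1). At an unadjusted p under 0.05, 0.556% of the genes tested had such a difference, and the value of 0 in mouse 7, whose list was the shortest, entered this one. It also mixes the 2 start-site groups, as the highest value was at the long transcript in mice 10 and 11 and at the short transcripts in the other mice with a peak. In the joined H3K27ac region at the short transcripts, warm HFD mice were at 0 and 75.2. Cold HFD mice were at 61.9 and 90.6 there, so cold and warm overlapped on HFD. Further H3K27ac regions in all 8 mice lay at the start sites of Gm10851 and Gm37975 inside the gene, at percentiles of 83.9 to 99.3 and 22.9 to 97.9.

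**Figure D2:**
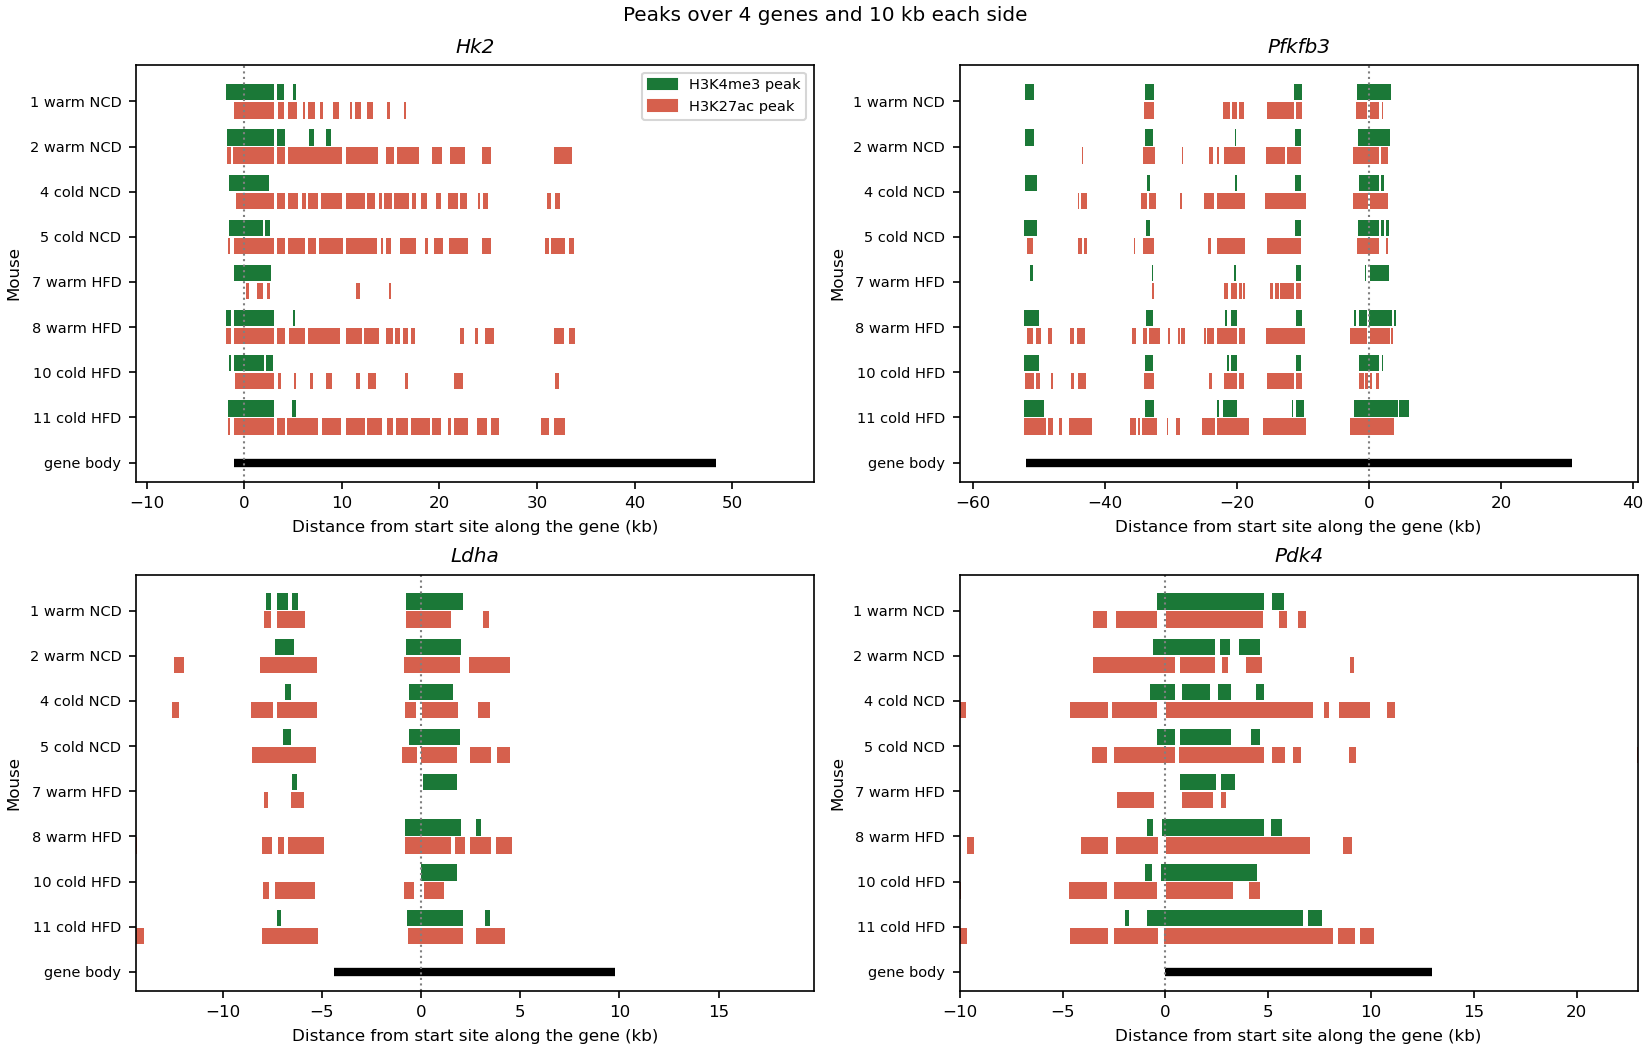
Peaks of H3K4me3 and H3K27ac in each of 8 mice over Hk2, Pfkfb3, Ldha and Pdk4 and 10 kb on each side. The horizontal axis is the distance in kb along the gene from a start site, bars are called peaks and the black bar is the gene body. Hk2 shows a row of H3K27ac peaks inside the gene, with 4 distal peaks in mouse 7 and 18 in mouse 4, and Pfkfb3 and Ldha show a block of H3K27ac upstream of the start site in all mice.

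Pkm (chr9:59656368-59679375, plus strand), which codes for the muscle-type pyruvate kinase, had wide peaks whose width varied between mice. The highest H3K4me3 peak reaching its start site was 442 to 8930 bp wide, with a median of 4136 bp over 8 mice. For H3K27ac the width was 372 to 10366 bp, with a median of 8287 bp over 7 mice. The median peak width of a list was 597 to 1117 bp for H3K4me3 and 368 to 656 bp for H3K27ac. Wide H3K4me3 peaks were not particular to Pkm, as Hk2 had a median width of 4108 bp and Pdk4 reached 7599 bp. The H3K4me3 percentile of Pkm was 90.5 and 85.3 on warm NCD, 88.9 and 87.6 on cold NCD, 64.1 and 63.2 on warm HFD, and 91 and 80.4 on cold HFD. The 2 warm HFD mice were the lowest, and the diet groups overlapped because of mouse 10. H3K27ac reached the start site in 7 mice and mouse 7 was the exception. The liver-type kinase Pklr had no summit of either mark at its start site and no distal H3K27ac peak in any mouse.

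Ldha (chr7:46841475-46855627, plus strand) had the highest median H3K4me3 percentile of the 10 genes, 94.3. The values were 99.4 and 97.5 on warm NCD, 84 and 91.1 on cold NCD, 54 and 98.8 on warm HFD, and 58.6 and 99.5 on cold HFD. Within each diet the mice thus ranged from 84 to 99.4 on NCD and from 54 to 99.5 on HFD, with the low values in mice 7 and 10. H3K27ac at the start site followed the same mice, with 99.2, 98.4, 55, 91.1, 0, 93.7, 26.1 and 98.7 in mice 1, 2, 4, 5, 7, 8, 10 and 11.

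Upstream of Ldha, the region chr7:46837259-46840976 had H3K27ac in all 8 mice. Its summit lay 6446 bp before the TSS and 2082 bp from the nearest start site of any transcript in the full annotation. The percentiles were 97.7, 99.8, 99.7, 99.1, 96.5, 96.4, 99.3 and 96.4 in the same order of mice. In mice 7 and 10, where the start site was at 0 and 26.1, this region was at 96.5 and 99.3. The region overlapped a H3K4me3 region present in 6 mice and a H3K4me1 region present in mice 2, 4, 5 and 8. Ldha was also the only one of the 10 genes with a H3K4me1 summit at a start site, in mice 2 and 4. Ldhb, the heart-type subunit, had H3K4me3 and H3K27ac summits at its start site in 8 mice and a distal H3K27ac peak in 1, so Ldha had the higher distal percentile in 8 of 8 mice.

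The pyruvate dehydrogenase kinases were both acetylated. Pdk2 (chr11:95026258-95041354, minus strand), the widely expressed isozyme, had start-site H3K27ac percentiles of 92.5 and 95.8 on warm NCD, 80.8 and 98.8 on cold NCD, 66.6 and 86.6 on warm HFD, and 89.9 and 98.9 on cold HFD. Its H3K4me3 percentiles were 87.2 and 91 on warm NCD, 91.4 and 97.5 on cold NCD, 75.6 and 51.9 on warm HFD, and 85.9 and 67 on cold HFD. Every HFD mouse was below every NCD mouse for H3K4me3, the highest HFD value being 85.9 and the lowest NCD value 87.2, while the groups overlapped for H3K27ac.

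Pdk4 (chr6:5483351-5496309, minus strand), the isozyme that is raised in fasting and by fatty acids, had the highest median H3K27ac percentile at the start site, 97.4. By any base the values were 96.5 and 83 on warm NCD, 99.9 and 93.6 on cold NCD, 94.1 and 98.3 on warm HFD, and 99.4 and 99.2 on cold HFD, all high and overlapping. H3K4me3 by any base was lower in rank, at 67.8 and 75.2, 75.9 and 76.8, 92.5 and 60, and 49 and 67 in the same order. The acetylated region around the start measured 12854 bp when joined over mice. A second region, chr6:5505633-5512257, had H3K27ac in all 8 mice at percentiles of 94.1 to 99.9, with its summit 12120 bp upstream of the TSS and so beyond the 10 kb window that it reaches into. Of the other kinases, Pdk1 had start-site H3K4me3 in 8 and H3K27ac in 6 mice, and Pdk3 had H3K4me3 in 8 mice and no H3K27ac at the start site or distally in any mouse.

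The order of the median start-site H3K4me3 percentiles was Ldha at 94.3, Hk2 at 89, Pkm and Pdk2 at 86.5, Slc2a1 at 82.7, Pfkl at 79.6, Pfkfb3 at 78.7, Hk1 at 71.6, Slc2a4 at 69.6 and Pdk4 at 61.4, all by summit. By any base Pdk4 was at 71.5, between Hk1 and Slc2a4, and the other medians were the same. The ranges of every pair of neighbours in this order overlapped. For H3K27ac reaching the start site the order was Pdk4 at 97.4, Hk2 at 95.5, Pfkl at 94.8, Slc2a4 at 94.6, Ldha at 92.4, Pdk2 at 91.2, Pkm at 81.4, Pfkfb3 at 81.1, Hk1 at 40.4 and Slc2a1 at 0, again with overlapping neighbours.

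Cold and warm mice were compared gene by gene, as the study asked how brown fat responds to cold and diet. The percentiles of 4 cold and 4 warm mice were set against each other by permuting the mice in all 70 ways (exact, two-sided), which can give no p below 0.0286. Of the 10 genes, 0 had non-overlapping groups for start-site H3K4me3, where 4.36% of the genes tested did. For start-site H3K27ac the count was 0 of 10 against 1.09%, and for distal H3K27ac 0 of the 9 genes with a peak against 4.34%. The median difference was 8.82 percentile points for H3K4me3 and 12.4 for start-site H3K27ac over the 10 genes and 3.93 for distal H3K27ac over the 9 genes, beside 6.01, 3.75 and 11.2 over all genes tested. The differences with the lowest p were those of Pfkl for H3K4me3 (10.3 points, 86.1 ± 9.14 against 75.8 ± 5.65, SD, n = 4, exact permutation p = 0.114, adjusted p = 0.858) and of Hk1 for start-site H3K27ac and Pdk2 for distal H3K27ac (25.7 and 33.8 points, exact permutation p = 0.143 for both, adjusted p = 1 and 0.818). No gene in the genome passed the adjustment by temperature, the lowest adjusted p being 0.655 for H3K4me3, 1 for start-site H3K27ac and 0.659 for distal H3K27ac. As the exact permutation test gives no p below 0.0286, a gene could pass only if most genes tested reached that p. Not passing therefore says little about any single gene. At an unadjusted p under 0.05, 616, 118 and 387 genes were below the limit.

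By diet, 1 of the 10 genes, Pdk2, had non-overlapping groups for start-site H3K4me3, against 3.13% of the genes tested in either direction and 2.48% with HFD below NCD. Its mean was 70.1 ± 14.4 on HFD and 91.8 ± 4.29 on NCD (SD, n = 4), a difference of -21.7 percentile points (exact permutation p = 0.0286, adjusted p = 0.846). When Pdk2 was ranked among genes rather than among peaks, the groups overlapped. Slc2a1 had the largest difference, -36.9 points (48.8 against 85.7, exact permutation p = 0.0571, adjusted p = 0.846), and its groups overlapped through mouse 11. The median difference over all genes tested was -9.45 points for this mark, and -11.5 over the 10 genes, so that lower ranks on HFD were general. The H3K4me3 lists of HFD mice 7, 8 and 10 were the shortest, with 13517, 19079 and 17195 peaks, of which 14%, 25.9% and 19.4% were distal. That of HFD mouse 11 was the longest, with 24104 peaks and 39.7% distal. A percentile depends on the other peaks of its list, and the part of list make-up in these differences was not tested. For start-site H3K27ac 0 of the 10 genes had non-overlapping groups against 1.53%, with a median of -5.53 beside -14.4 over all genes. For distal H3K27ac it was 0 of 9 against 0.762%, with medians of -1.94 over the 9 genes and -2.68 over all genes. With no base of the peak at a start site the median over the 9 genes was 5.19, beside -2.56 over all genes. No gene in the genome passed the adjustment by diet, the lowest adjusted p being 0.846, 1 and 1, and 442, 165 and 68 genes had an unadjusted p under 0.05. As for temperature, a gene could pass only if most genes tested reached the lowest possible p. Of the 7 skeletal muscle markers, 2 to 3 had a start-site H3K4me3 peak in each NCD mouse and 1 in each HFD mouse, with mean percentiles over the list of 13.1 to 23.3 and 7.88 to 12.5, and its part in these values was not tested. Ckm, Myh4, Tnnt3 and Atp2a1 had none in any mouse.

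The number of distal H3K27ac peaks was compared as well, a measure chosen after the values were seen. Pdk4 had 4 and 4 peaks on warm NCD, 5 and 5 on cold NCD, 3 and 3 on warm HFD, and 2 and 3 on cold HFD, fewer on HFD in every mouse (difference of -1.75 peaks, exact permutation p = 0.0286, not adjusted, with non-overlapping groups at 0.191% of genes). Without the peaks that reach the start site the numbers were 3, 3, 4, 4, 1, 3, 2 and 3 in mice 1 to 11, and the diet groups overlapped (exact permutation p = 0.171). The other 9 genes had overlapping groups by diet and all 10 by temperature, where 0.975% of genes did not overlap.

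Single regions were also examined. Over the 10 windows there were 179 regions, unions of peaks over the mice of a mark, and 0 of them had a peak in each of 4 mice and in no mouse of the opposite group, by temperature or by diet. The lowest p by Fisher's exact test (two-sided) was 0.143 for both factors. In the genome such regions made up 0.326% of H3K27ac regions by temperature and 0.0883% by diet, and 0.16% and 0.612% of H3K4me3 regions. Of the H3K4me3 regions at the genes' own start sites, 11 of 11 were in all 8 mice. Of the H3K27ac regions, 6 of 12 at own start sites and 3 of 39 distal ones with the median summit in the window were. H3K4me1 had 67 distal regions and 0 in all mice, and mice 1, 7 and 10 had no H3K4me1 peak in any of the 10 windows, their lists holding 592, 12 and 18 peaks.

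**Figure D3:**
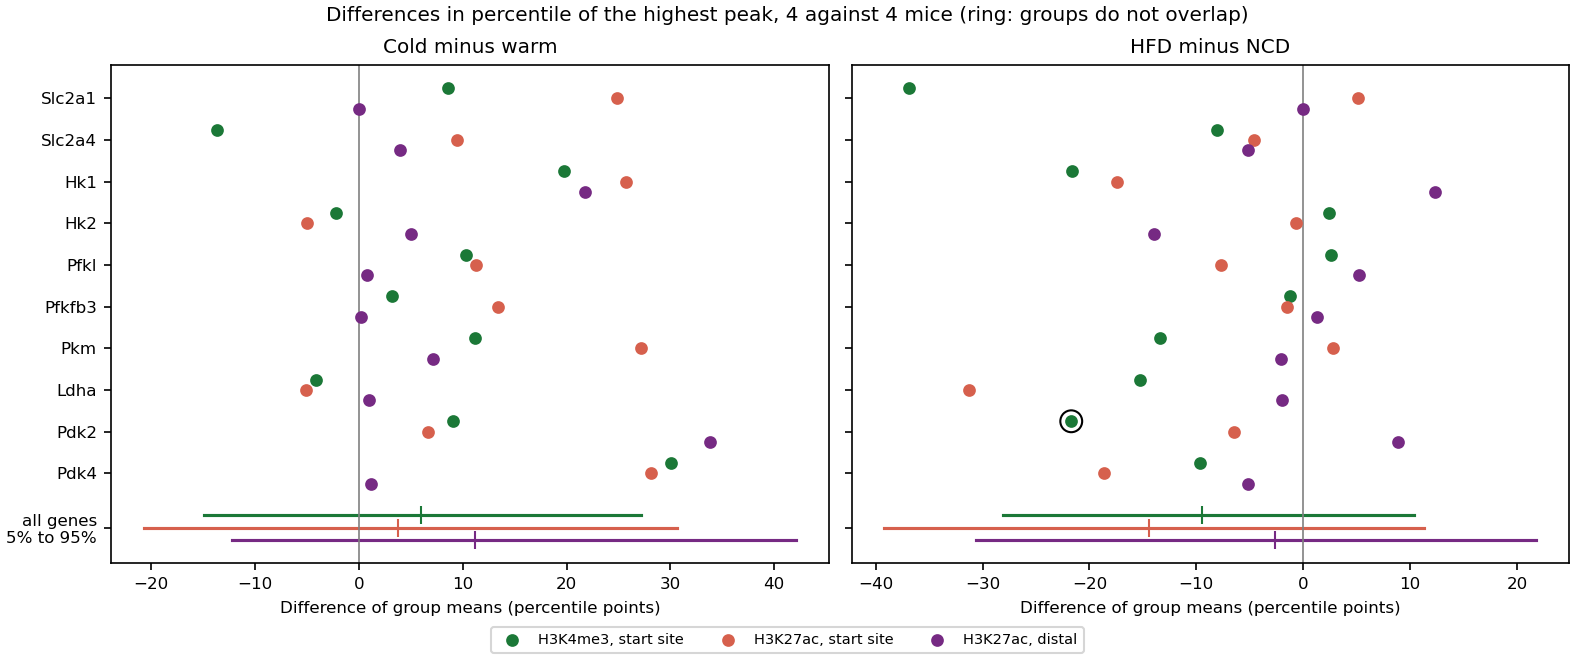
Difference of group means in percentile points for each of the 10 genes, cold minus warm on the left and HFD minus NCD on the right, 4 against 4 mice. Points are the 3 measures, lines at the bottom span the 5th to 95th percentile of all genes tested with a tick at the median, and a ring marks groups that do not overlap. The ring is on Pdk2 for H3K4me3 by diet, at -21.7.

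Other genes of the pathway were taken from a list of 47. Of these, 27 had a start-site H3K4me3 summit in all 8 mice, 8 had a start-site H3K27ac summit in all 8 mice and 4 had a distal H3K27ac peak in all 8 mice. At the transporters, Slc2a2, the liver and islet transporter, had none of these peaks in any mouse, Slc2a3 had H3K4me3 in 8 mice and H3K27ac at the start site in 0, and Slc2a12 had H3K4me3 in 8 and H3K27ac in 3 mice. Pfkfb4 had both marks at the start site in 8 mice. Aldolase A, glyceraldehyde-3-phosphate dehydrogenase and enolase 1 had median start-site H3K27ac percentiles of 99.3 (Aldoa), 95.4 (Gapdh) and 96.7 (Eno1). The 4 genes with a distal H3K27ac peak in all 8 mice were Tbc1d4, whose product holds back GLUT4 vesicles until insulin acts, Pfkp, Eno1 and G6pdx.

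By temperature, 1 of the 38 listed genes with a H3K4me3 peak had non-overlapping groups, as did 1 of 33 for start-site H3K27ac and 1 of 35 for distal H3K27ac, all with cold above warm, beside 4.06%, 1.09% and 4.32% of all genes tested in that direction. Pdp2, a phosphatase that switches pyruvate dehydrogenase back on, had a mean H3K4me3 percentile of 92.1 in the cold and 59 in the warm mice (exact permutation p = 0.0286, adjusted p = 0.655). Txnip, which slows glucose uptake, had a start-site H3K27ac percentile of 99.5 and 93.7 (exact permutation p = 0.0286, adjusted p = 1), and its groups overlapped when peaks were counted by any base. Pdhb, a pyruvate dehydrogenase subunit, had a distal H3K27ac percentile of 64.4 and 1.9 (exact permutation p = 0.0286, adjusted p = 0.659). By diet, Gapdh had a start-site H3K27ac percentile of 87.4 on HFD and 97.9 on NCD (exact permutation p = 0.0286, adjusted p = 1), beside 1.51% of genes with HFD below NCD, and no other listed gene had non-overlapping groups for these measures.

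**Figure D4:**
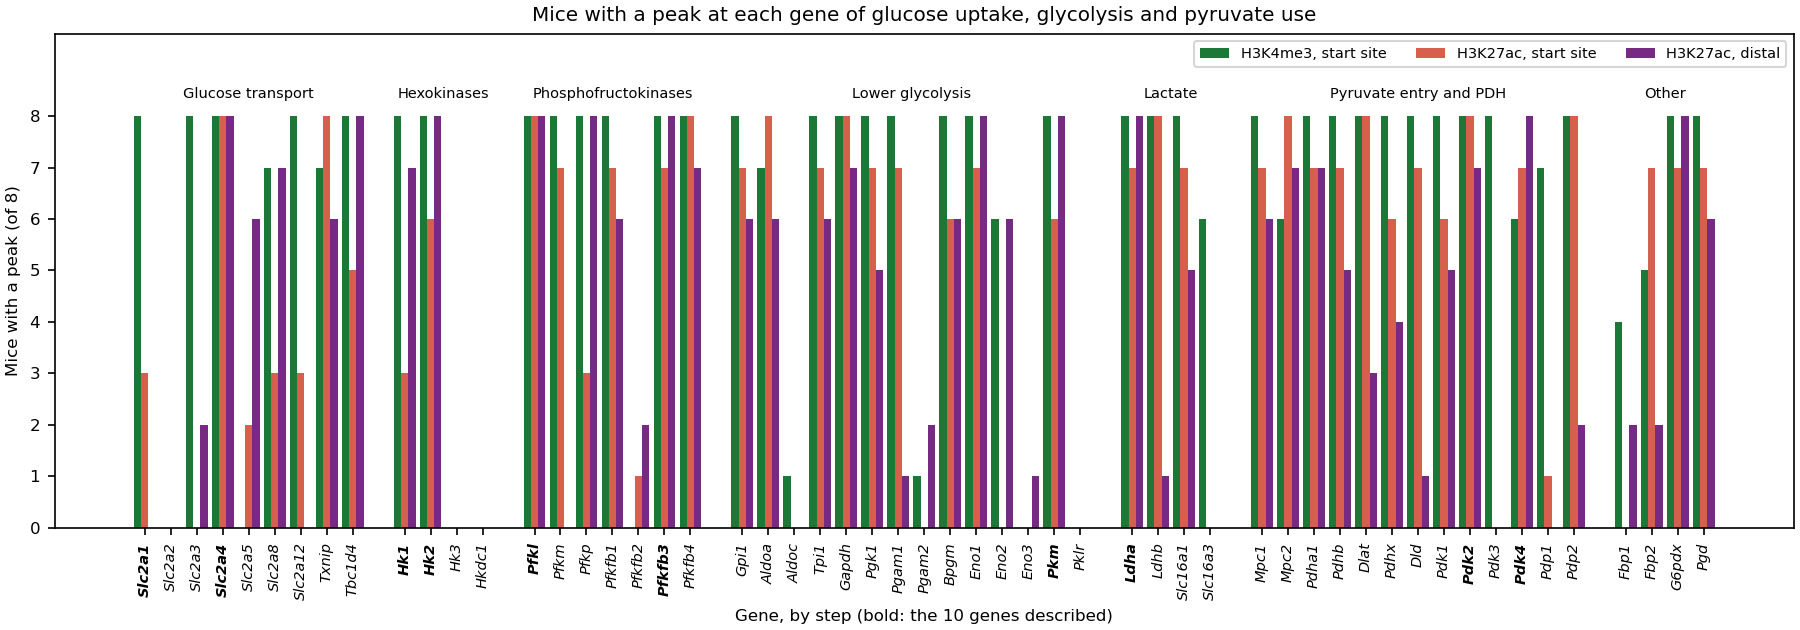
Number of mice, of 8, with a start-site H3K4me3 summit, a start-site H3K27ac summit or a distal H3K27ac peak at the 10 genes (bold) and at other genes of the pathway, ordered by step. The bars of Hk3, Hkdc1, Pklr and Slc2a2 are at 0, and Slc2a4 and Pfkl reach 8 for all 3.

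The genes closest to Slc2a4, Hk2 and Pdk4 in start-site percentile were sought over the 16 H3K4me3 and H3K27ac libraries, by the mean absolute difference. For Slc2a4 they were Acad11 at 8.13 and Tmem106a at 9.26, with a median of 56.5 over all genes. For Hk2 they were Snapc5 at 11.2 and Pigb at 11.8, with a median of 43.8, and for Pdk4 they were Kdm3a at 10.6 and Otop1 at 11, with a median of 54.1. The libraries share mice, so this is a description of likeness only.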

How the data were processed

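Histone marks in brown fat had been profiled by the authors with 4 antibodies in 8 mice, and the 8 input libraries were not analysed here. According to the study's methods, tissue of a pair of mice entered a sequencing experiment, while each list carries 1 mouse number, so whether a list is 1 animal or a pair is unclear, and p-values measure the spread between lists. Reads were trimmed with cutadapt and aligned with Bowtie2 to GRCm38, and MACS2 peaks were called by the authors for each library. For tool versions, none is given in the sources used here. Deposited peak lists give each peak's fold enrichment (a ratio of pileup over local background), −log10 p-value and −log10 q-value, the lowest −log10 q being 1.3. Peak lists hold no read depth, so list length was the only guide to sensitivity.

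The 10 genes and all lists were chosen with earlier results of these data known. Start sites came from GENCODE M21 basic transcripts, of protein-coding genes for the start-site measure and of all genes for deciding which peaks were distal. In the full annotation some distal regions lie nearer to a start, such as the H3K27ac region chr7:46848282-46850414 in Ldha, at 156 bp. The percentile was the rank by fold within the list. Groups were compared by the exact permutation test, with Benjamini-Hochberg adjustment over all genes with a peak in at least 1 mouse, and presence by Fisher's exact test, in Python 3.11.15 with scipy 1.17.1. Regions joined peaks of a mark that shared at least 1 base. Genes were named if they were among the 10, if their groups did not overlap in the list of 47, or as isozymes, and others were chosen after their values were seen. Some genes of that list entered the counts but are not reported here by name. The calculation was tested on simulated data with shifts larger than the whole percentile scale. This checks the code, not the ability to find differences of the size seen here. Alternatives were distances of 500 bp and 5′ ends, any base, rank by q, a minimum −log10 q of 5, ranks among genes, and leaving out mice. A wider start-site distance and a wider window were also run. They entered the counts of recomputed differences, and their numbers of genes are not reported here.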

Additional observations from a re-analysis of the deposited data

Results flagged for a closer look

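By Dixon's criterion, 1 mouse stood apart from the other 3 in 20 of 120 groups of 4 examined. The criterion assumes normally distributed values, while percentiles are bounded and often 0, so no number by chance is given. A single peak beside 3 mice without one is always flagged, as for Slc2a1 start-site H3K27ac in mouse 11 among HFD mice. The groups by temperature and by diet share mice, so the 20 cases rest on 18 distinct values, and 10 of the 20 belonged to mouse 7, which had the shortest H3K27ac list. For start-site H3K27ac, mouse 7 was at 34.2 for Pfkl among the warm and among the HFD mice, and at 0 for Pfkfb3 and Ldha among the warm mice, for Pkm among the HFD mice and for Pdk4 among both. By any base mouse 7 was at 94.1 for Pdk4, so its 0 there rests on the summit rule. For distal H3K27ac it was at 0 for Hk1 and at 41.9 for Pkm among the HFD mice, and for H3K4me3 at 54 for Ldha among the warm mice.

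Other start-site values were higher or lower than those of the other 3 mice. For Slc2a1, H3K27ac was at 5.63 in mouse 2 among warm, 39.6 in mouse 5 among NCD and 65.7 in mouse 11 among HFD mice, the others being at or near 0, and H3K4me3 was at 33.5 in mouse 10 among cold mice. H3K27ac was at 59.6 for Slc2a4 in mouse 1 among NCD mice, at 16.5 for Hk1 in mouse 10 among HFD mice and at 91.8 for Pdk4 in mouse 5 among cold mice. By any base mouse 1 was at 76 for Slc2a4 and mouse 10 at 71 for Hk1, so these 2 values rest on the summit rule. Distal H3K27ac was at 97.5 for Pfkfb3 in mouse 5 among cold mice, at 99.3 for Ldha in mouse 10 among HFD mice and at 0 for Pdk2 in mouse 2 among NCD mice.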

How the results depend on the processing

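A missing peak cannot be told from a shallow library, since the lists hold no depth, and 4 against 4 mice allow no p below 0.0286. No paired analysis was possible because the groups share no mouse number. With start sites of 500 bp, 3 genes instead of 9 had an H3K4me3 summit in all mice and 0 instead of 3 an H3K27ac summit. By any base the H3K27ac count was 5, and without mice 1, 7 and 10 it was 7. By temperature, the count of genes with non-overlapping H3K4me3 was 0, and 1 with the 5′ end of the gene only (Pfkfb3), 1 by rank of q (Pfkl) and 1 without mice 1, 7 and 10 (Hk2, cold below). By diet it was 1, and 2 by rank of q (Slc2a1 and Pdk2), 0 with percentiles among genes and 3 without mice 1, 7 and 10 (Pkm and Pdk2 below, Ldha above). For start-site H3K27ac by diet it was 0, and 1 with percentiles among genes (Pfkl) and 2 without mice 1, 7 and 10 (Pfkl and Pkm). For distal H3K27ac without these 3 mice it was 2 by temperature (Pdk2 and Pdk4) and 4 by diet (Hk1, Pfkfb3, Pkm and Ldha). Fewer mice make groups overlap less often, and the cause of the other changes was not tested.

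Leaving out each mouse in turn, H3K4me3 in all mice was found at 9 to 9 genes, start-site H3K27ac at 3 to 6, the highest without mouse 7, and distal H3K27ac at 7 to 8. The genes with non-overlapping groups numbered 0 to 2 by temperature for H3K4me3, the highest without mouse 4, and 1 to 2 by diet, with 2 without mice 4, 10 or 11. They numbered 0 to 1 for start-site H3K27ac by temperature, with 1 without mice 5 or 11, and 0 to 1 by diet, with 1 without mouse 7. For distal H3K27ac they numbered 0 to 1 by temperature, with 1 without mouse 10, and 0 to 2 by diet, with 2 without mice 4 or 10 and 1 without mice 7 or 11. Of 300 differences recomputed for single genes under other settings, 278 moved by less than the spread between mice, 22 moved by more and 40 changed sign. Of 480 recomputed without 1 mouse, 48 changed sign. Leaving out 1 of 4 mice cannot move a difference by as much as that spread, so the size of these moves shows nothing.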
